A study of Mus musculus with 6 samples.

Results

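The erythroid transcription factors Gata1, Klf1, Gfi1b, Tal1, Zfpm1, Lmo2, Ldb1, Nfe2, Lyl1 and Sox6 were described in LSK cells (lineage-negative, Sca-1-positive, c-Kit-positive bone marrow cells, the fraction that holds haematopoietic stem cells and early progenitors). The 10 genes were taken by symbol, and every probe that the array assigns to them was read, which gave 17 of 56605 probes. The control group carried 2 wild-type Atg5 alleles with the Vav-iCre transgene (Atg5w/w;Vav), and the other group carried floxed Atg5 with the same transgene (Atg5f/f;Vav). Atg5 is needed to form autophagosomes, and the Vav promoter drives Cre in blood cells, so both groups carried Cre and the floxed allele was the only labelled difference. All mice were C57BL/6 at P6–8, and no group received an agent. RNA of 3 samples per group was hybridised to 1-colour microarrays with 60-mer probes, 1 array per sample. The sources used here do not state how many mice gave a sample. The SD, n and p-values below are therefore those of arrays and measure the spread between these 6 arrays.

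These factors build the erythroid programme together. Gata1 binds GATA motifs and Tal1 or Lyl1 binds E-boxes, and the small adaptors Lmo2 and Ldb1 join them in 1 complex at globin, haem and membrane protein genes. Klf1 binds CACC-type motifs, Zfpm1 (FOG-1) is the cofactor that Gata1 needs at many of its targets, Gfi1b is a repressor, Nfe2 is a leucine zipper subunit, and Sox6 acts in red cell maturation and globin silencing. Gata1, Klf1 and Gfi1b rise as a progenitor commits to the erythroid line, whereas Tal1, Lyl1, Lmo2 and Ldb1 are already used in stem cells.

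The probes of the genes that moved are given by their position on mm9 and by their first 30 bases, 5′ to 3′ as printed on the array, since each value below is the brightness of a spot of that sequence. Gata1 has 1 probe, at chrX:7536392-7536451 (minus strand), which starts at base 1836 of its transcript. Klf1 has a pair of probes, at chr8:87428881-87428940 and chr8:87427100-87427159 (plus strand, transcript bases 1220 and 700). Gfi1b has 1 probe at chr2:28464982-28465041 (minus strand, base 1651). The Zfpm1 probe used for the gene lies at chr8:124861053-124861112 (plus strand, base 3291), that of Ldb1 at chr19:46107487-46107546 (minus strand, base 1832) and that of Sox6 at chr7:122614402-122614461 (minus strand, base 8633).
Gata1: aataaaaccacctggagacatgcgctggta
Klf1, at base 1220: aaggaccgtatcccaaaagatgagccatta
Klf1, at base 700: gtaccccgcgccacagtaccaaggccactt
Gfi1b: agccatgatagtagaagcctgctcctatca
Zfpm1: tattactgctcttctcacgccgccgagcac
Ldb1: gagcagaagacggaataaagagactgggcg
Sox6: cttaactagttgtcatcactccatcttttg

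Values are log2 signal relative to the 75th percentile of the same array, a scale on which 0 is that percentile and 1 unit is a doubling. That percentile was an intensity of 656.8, 651.7 and 746.2 in control and of 881.4, 698.4 and 620.3 in Atg5f/f;Vav. In control 59.9%, 59.4% and 59.9% of spots were well above background, and in Atg5f/f;Vav 56.7%, 55.8% and 53.6%. Arrays give no read depth, so precision is limited by how many there are. They shared 1 slide, with control in row 1 and Atg5f/f;Vav in row 2, and the effect of the row cannot be told apart from that of the genotype. The targeted gene was read first, by 1 probe at chr10:44083997-44084056. Atg5 was 1.10, 0.93 and 1.06 in control and 1.46, 1.51 and 1.74 on the arrays labelled Atg5f/f;Vav, higher by 0.54 (SE 0.12, limma with Benjamini-Hochberg adjustment, adjusted p = 0.0209). The probe thus went up where the labels say that the gene was deleted. Its place relative to the floxed part was not determined, so it does not check the labels, and every direction given here rests on the labels.

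Gata1, Klf1, Gfi1b, Zfpm1 and Ldb1 were higher in Atg5f/f;Vav LSK cells and Sox6 was lower, whereas Tal1, Lyl1, Lmo2 and Nfe2 did not pass the test. Gata1 and Klf1 rose about 8-fold (8.01 and 7.73) and Gfi1b rose 4.69-fold. Zfpm1 rose 1.9-fold and Ldb1 1.3-fold, and Sox6 fell to 0.581 of control. The 5 genes higher and 1 lower of 10 stand beside 18.7% of all 20778 genes called higher and 15.3% called lower, and beside 34.4% of all 32074 tested probes called in either direction. By probe, 6 of the 15 tested were higher and 1 was lower. The median log2 difference over the 10 genes was 0.20 and over all genes tested it was -0.03. These counts and medians describe the list, and no test was made over it.

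**Figure D1:**
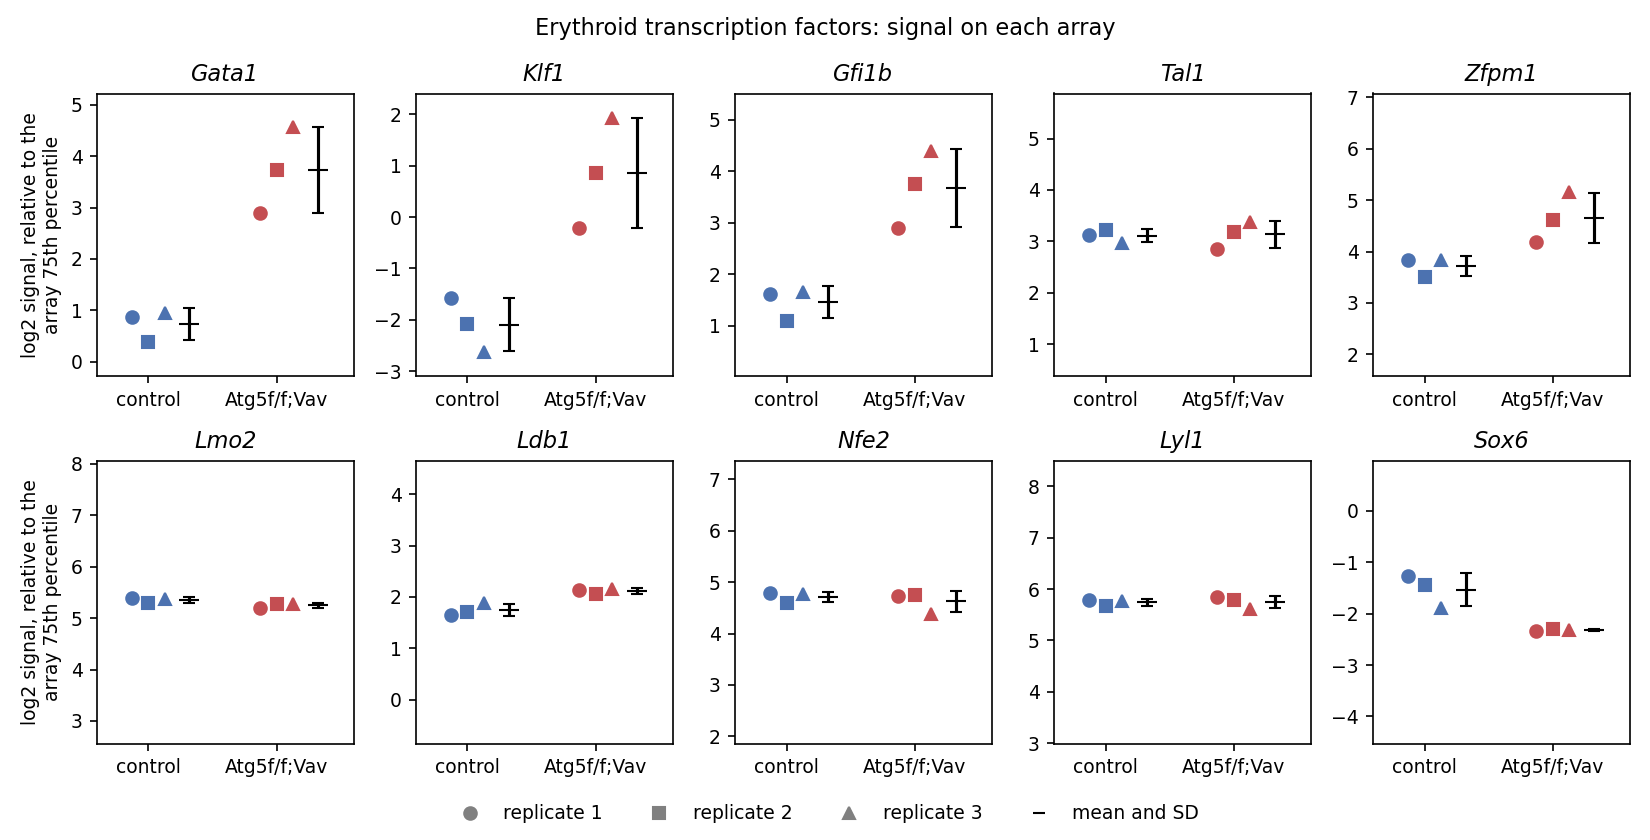
Log2 signal relative to the array's 75th percentile (y axis, each panel spanning the same number of log2 units) of the 10 genes in control (blue) and Atg5f/f;Vav (red), 1 marker per array, with the mean and SD in black. Gata1, Klf1 and Gfi1b separate widely (Gata1 at most 0.95 in control and at least 2.90 in Atg5f/f;Vav), while Tal1, Lyl1 and Nfe2 overlap.

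Gata1, the factor of the erythroid complex that binds GATA motifs, measured 0.87, 0.38 and 0.95 in control and 2.90, 3.73 and 4.56 in Atg5f/f;Vav. Every Atg5f/f;Vav array lay above every control array, and replicate 3 was the highest. The means were 0.73 ± 0.31 and 3.73 ± 0.83 (SD, n = 3 arrays each). The log2 difference was 3.0 (SE 0.40, limma adjusted p = 0.0121), and in size of rise the gene was number 49 of the 20778 tested. With any 1 array left out the difference stayed between 2.59 and 3.42. The adjusted p rose to 0.0513 without control replicate 1 and to 0.061 without control replicate 2, past the threshold of 0.05. The methods' t-test on the same values gave an adjusted p of 0.0541 for Gata1.

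Klf1, the activator of adult globin and many red cell genes, was measured at both of its probes. At base 1220 it was -1.58, -2.08 and -2.62 in control and -0.21, 0.85 and 1.93 in Atg5f/f;Vav, a difference of 2.95 (SE 0.53, limma adjusted p = 0.0159). At base 700 it was -2.53, -2.73 and -3.09 against -0.55, 0.22 and 0.82, again a difference of 2.95 (SE 0.34, limma adjusted p = 0.00899). The groups did not overlap at either probe. Control replicate 3 was the lowest and Atg5f/f;Vav replicate 3 the highest at both, so the array that stood highest for Gata1 also stood highest for Klf1. Without control replicate 1 or control replicate 2 the adjusted p at base 1220 was 0.0638 and 0.0697.

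Gfi1b, the repressor that works beside Gata1 in red cell and megakaryocyte precursors, measured 1.61, 1.09 and 1.66 in control. It measured 2.89, 3.76 and 4.40 in Atg5f/f;Vav, with no overlap and replicate 3 again highest. The difference was 2.23 (SE 0.37, limma adjusted p = 0.0152). Without control replicate 1 or control replicate 2 it was 2.31 and 2.05, with adjusted p of 0.0649 and 0.0695.

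Zfpm1, the cofactor of Gata1, was 3.83, 3.50 and 3.83 in control and 4.18, 4.61 and 5.15 in Atg5f/f;Vav. The difference of 0.93 (SE 0.25) passed the test (limma adjusted p = 0.0307), and the groups did not overlap. Its second probe, at chr8:124861353-124861412, was 0.35, -0.08 and 0.30 against 0.42, 0.78 and 0.99. There the groups did not overlap either, but the difference of 0.54 (SE 0.19) did not pass (limma adjusted p = 0.0643). The first probe lost its call under quantile normalisation (0.60, adjusted p = 0.0818), and with each control array or Atg5f/f;Vav replicate 2 left out (0.82 to 0.98, adjusted p 0.0609 to 0.108). It also missed the threshold with no filter on dim probes (limma adjusted p = 0.0713) and by the methods' t-test after Benjamini-Hochberg adjustment (0.1).

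Ldb1, the bridging adaptor of the complex, was 1.65, 1.70 and 1.88 in control and 2.14, 2.05 and 2.15 in Atg5f/f;Vav. This small difference of 0.37 (SE 0.11, limma adjusted p = 0.0421) was made without overlap between groups. A second Ldb1 probe, at chr19:46109955-46110014, was -0.16, 0.01 and -0.34 against -0.22, -0.09 and -0.03, with a difference of 0.05 (SE 0.13, adjusted p = 0.766). The Ldb1 call was therefore made at 1 of its probes, and it was lost under quantile normalisation (0.20, adjusted p = 0.145), with scaling on commonly detected probes (0.22, adjusted p = 0.117) and as the mean of its probes (0.21, adjusted p = 0.118). With no filter on dim probes its adjusted p was 0.105, and by the methods' t-test after Benjamini-Hochberg adjustment 0.0587. It was also lost with each array left out except control replicate 3, and with replicate number as a block (limma adjusted p = 0.0569).

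Sox6 was the member that fell. Its brightest probe was -1.27, -1.45 and -1.89 in control and -2.34, -2.29 and -2.32 in Atg5f/f;Vav, a difference of -0.78 (SE 0.17, limma adjusted p = 0.0193). The Atg5f/f;Vav arrays lay close together and all below control. A further probe, at chr7:122685210-122685269, was -3.37, -3.86 and -4.77 against -5.11, -5.13 and -4.26. It was well above background on 3 control arrays and on 1 Atg5f/f;Vav array, and its difference of -0.83 (SE 0.39) did not pass (adjusted p = 0.136). Another 2 Sox6 probes were well above background on no array and were not tested. Without control replicate 1 or control replicate 2 the adjusted p of the brightest probe was 0.0717 and 0.0785. It also missed the threshold as the mean of the tested Sox6 probes (-0.81, adjusted p = 0.0593), with no filter on dim probes (adjusted p = 0.0508) and by the methods' t-test after Benjamini-Hochberg adjustment (0.0647).

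Tal1, the E-box partner of Gata1, measured 3.13, 3.22 and 2.97 in control and 2.86, 3.18 and 3.37 in Atg5f/f;Vav. The groups overlapped, and the difference was 0.03 (SE 0.16, adjusted p = 0.887). Lyl1, the close relative of Tal1, measured 5.79, 5.67 and 5.77 against 5.85, 5.79 and 5.61, a difference of 0.01 (SE 0.11, adjusted p = 0.955). Neither has a settled direction. Under quantile normalisation Tal1 was -0.25 and Lyl1 -0.36, and with scaling on the probes detected on all arrays Tal1 was -0.13 and Lyl1 -0.15.

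Lmo2, the adaptor that holds Tal1 and Ldb1 together, was 5.40, 5.29 and 5.38 in control and 5.20, 5.28 and 5.27 in Atg5f/f;Vav. The Atg5f/f;Vav arrays were the lower ones, narrowly and without overlap, and the difference of -0.11 (SE 0.10) did not pass (adjusted p = 0.43). Its second probe crosses an intron, with ends at 103816341 and 103821054 of chromosome 2, and differed by -0.25 (SE 0.12, adjusted p = 0.154). Under quantile normalisation the first probe was -0.47 and passed (adjusted p = 0.0239). Nfe2, a driver of globin and platelet genes, was 4.78, 4.59 and 4.76 against 4.74, 4.75 and 4.38, with a difference of -0.09 (SE 0.14, adjusted p = 0.646).

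Without overlap between groups, 5 of the 10 genes were higher and Sox6 and Lmo2 were lower. Over all genes 55.9% had no overlap. Set out by role, the rises of the lineage factors Gata1, Klf1 and Gfi1b were between 2.23 and 3.0, those of the Gata1 cofactor and the adaptor Ldb1 were 0.93 and 0.37, and the differences of the E-box proteins were 0.03 and 0.01. Within the Atg5f/f;Vav group the rises were uneven between arrays. Relative to the control mean, Gata1 was higher by 2.17, 3.0 and 3.83, Klf1 by 1.89, 2.94 and 4.02, and Gfi1b by 1.44, 2.31 and 2.95. For all 5 genes called higher, replicate 3 was the highest array of its group. In bulk samples such as these, more cells of a type and more RNA per cell cannot be told apart.

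**Figure D2:**
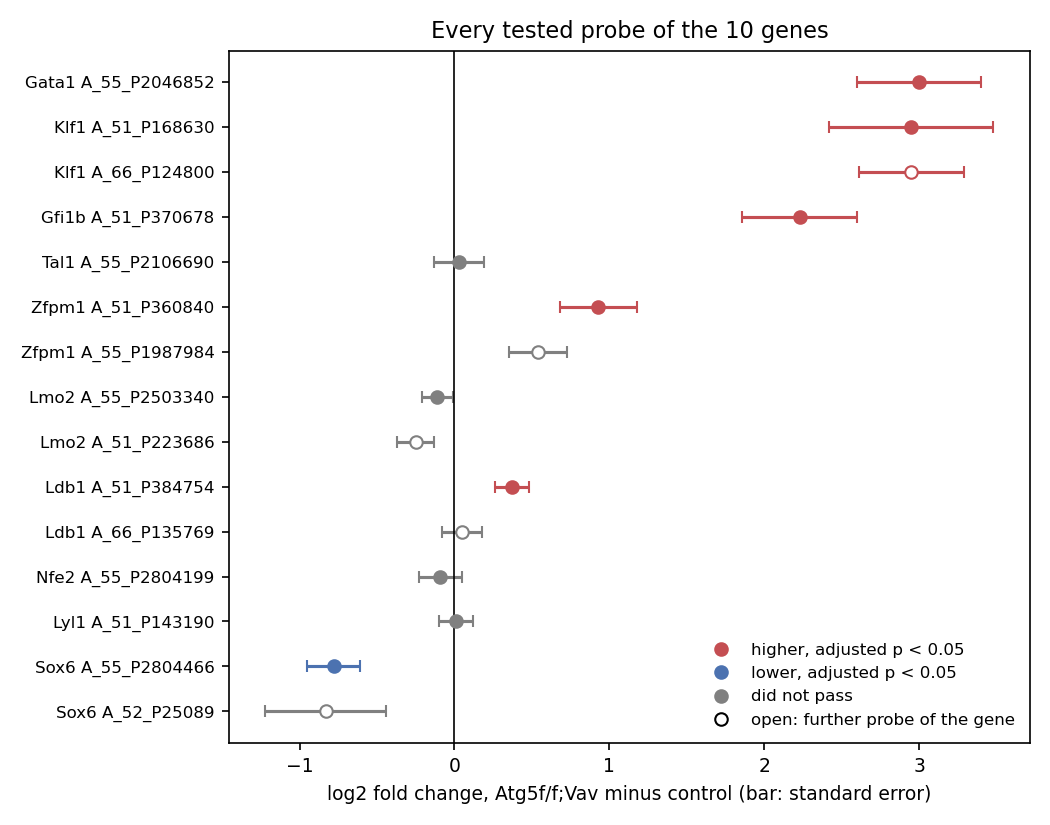
Log2 fold change, Atg5f/f;Vav minus control (x axis), with its standard error, for each of the 15 tested probes of the 10 genes. Filled points are the probes that represent a gene and open points are further probes. The Klf1 probes lie together at 2.95, while those of Ldb1 differ (0.37 and 0.05).

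The promoters of Gata1, Klf1 and Gfi1b are shown because these genes moved together and their products are known to act on one another's genes. Promoters came from RefSeq on GRCm38.p6 and cover 250 bases before to 50 after a gene's start. They matched 8 of the 10 genes with 16 windows, and not Lmo2 or Nfe2. Each sequence below is the part before the start, read along the gene's strand, with the searched motifs in capitals. The GATA motif was searched as AGATAA and as TGATAA, the KLF motif as CCACACCC and as CCACGCCC, the E-box as CAGATG and as CAGCTG, and the NF-E2 motif as TGAGTCA. Both strands were searched, and no motif contains another. The Gata1 promoter, chrX:7967911-7968160 (minus strand), held none of them. That of Klf1, chr8:84901732-84901981 (plus strand), held TGATAA on the reverse strand at position -80 from the start and CAGATG on the forward strand at -59. That of Gfi1b, chr2:28621983-28622232 (minus strand), held TGATAA on the forward strand at -120.
Gata1: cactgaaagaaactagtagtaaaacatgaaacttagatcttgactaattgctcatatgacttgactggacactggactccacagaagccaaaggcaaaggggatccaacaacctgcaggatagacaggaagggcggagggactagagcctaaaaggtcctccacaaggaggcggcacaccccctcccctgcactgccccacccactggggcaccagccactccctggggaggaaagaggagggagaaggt
Klf1: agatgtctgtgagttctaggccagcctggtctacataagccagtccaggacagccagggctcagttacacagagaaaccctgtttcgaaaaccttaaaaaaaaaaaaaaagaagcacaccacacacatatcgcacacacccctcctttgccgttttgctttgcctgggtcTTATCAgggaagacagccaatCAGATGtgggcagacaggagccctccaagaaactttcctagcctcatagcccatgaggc
Gfi1b: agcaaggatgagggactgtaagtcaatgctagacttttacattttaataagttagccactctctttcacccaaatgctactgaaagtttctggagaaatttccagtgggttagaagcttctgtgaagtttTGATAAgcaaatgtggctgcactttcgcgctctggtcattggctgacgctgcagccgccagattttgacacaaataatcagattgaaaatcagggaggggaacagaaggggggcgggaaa

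Zfpm1 held CCACGCCC, on the reverse strand at -74. AGATAA or TGATAA was found in 37.5% of the 16 windows of these genes, against 18.6% of all 32851 windows. By gene it was 5 of 8 (62.5%), where Tal1, Ldb1 and Sox6 have several windows each, against 21% of 27025 genes. CCACACCC or CCACGCCC was found in 12.5% of windows against 8.58%, and by gene in 25% against 9.75%. Of the genes with a GATA motif, Klf1, Gfi1b and Ldb1 were called higher, Sox6 lower and Tal1 in neither direction. CAGATG was in 25% of the 16 windows against 17.2% of all windows, CAGCTG in 6.25% against 16.3% and TGAGTCA in 0% against 5.2%. A match is only a run of letters, and no binding was measured.

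The genes of the proteins that work with these factors were read next. The 25 partners and cofactors, all tested, comprise the E-proteins that pair with Tal1, the Ssbp proteins that stabilise Ldb1, the Kdm1a, NuRD and Cbfa2t corepressors, the coactivators and the small Maf partners of Nfe2. Of these 4 were higher, 1 was lower and 20 did not pass, with a median log2 difference of 0.19, beside 18.7% higher and 15.3% lower over all genes. This split turned with the scaling. Under quantile normalisation 2 were higher and 4 lower, and with scaling on commonly detected probes 2 were higher and 3 lower. Lmo4, Mta1 and Crebbp kept their calls under both, Mta2 and Ssbp4 lost theirs, and Cbfa2t3 was called lower under both. Lmo4, a relative of Lmo2 that also binds Ldb1, was 2.49, 2.44 and 2.70 in control and 3.33, 3.36 and 3.28 in Atg5f/f;Vav, a rise of 0.78 (SE 0.11, limma adjusted p = 0.0138). The NuRD subunits Mta1 and Mta2 rose by 0.61 and 0.43, and Ssbp4 by 0.40. The coactivator Crebbp fell by 0.54, from 4.28, 4.40 and 4.05 to 3.43, 3.91 and 3.76 (limma adjusted p = 0.0421). With replicate number as a block Crebbp was not called. Cbfa2t3 (ETO2), the corepressor bound to the Tal1 complex, was -0.24 (adjusted p = 0.113). The brightest probe of the list, that of the histone chaperone Rbbp4, was 0.33 (adjusted p = 0.0542). The list is sensitive to single arrays, as 3 genes were called without Atg5f/f;Vav replicate 2, 2 without Atg5f/f;Vav replicate 3, and none without control replicate 1 or 2, where 5 each had an unadjusted limma p under 0.05.

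Factors that act earlier than, or against, Gata1 followed. Gata2, which Gata1 replaces at shared sites as red cells mature, was 2.61, 2.39 and 2.54 in control and 2.73, 2.85 and 2.75 in Atg5f/f;Vav. The groups did not overlap, but the difference of 0.26 (SE 0.11) did not pass (adjusted p = 0.103). Spi1 (PU.1), the myeloid factor that antagonises Gata1, was -0.05 (SE 0.17, adjusted p = 0.83). Of the 13 genes 2 were higher, 3 were lower and 8 did not pass, with a median of -0.12, beside 18.7% and 15.3% of all genes. The myeloid factors Cebpa (0.91) and Cebpb (0.62) rose. The stem cell factors Meis1 (-0.78) and Erg (-0.73) and the lymphoid factor Ikzf1 (-0.34) fell, with limma adjusted p of 0.0484, 0.0453 and 0.042. The brightest probe, that of the progenitor factor Myb, was 0.13 (adjusted p = 0.335). Only Cebpa and Cebpb kept their calls without control replicate 3, and only they did with replicate number as a block. Meis1 also lost its call on the authors' deposited signal. No gene of this list was called without control replicate 1 or 2 (5 each at an unadjusted limma p under 0.05).

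**Figure D3:**
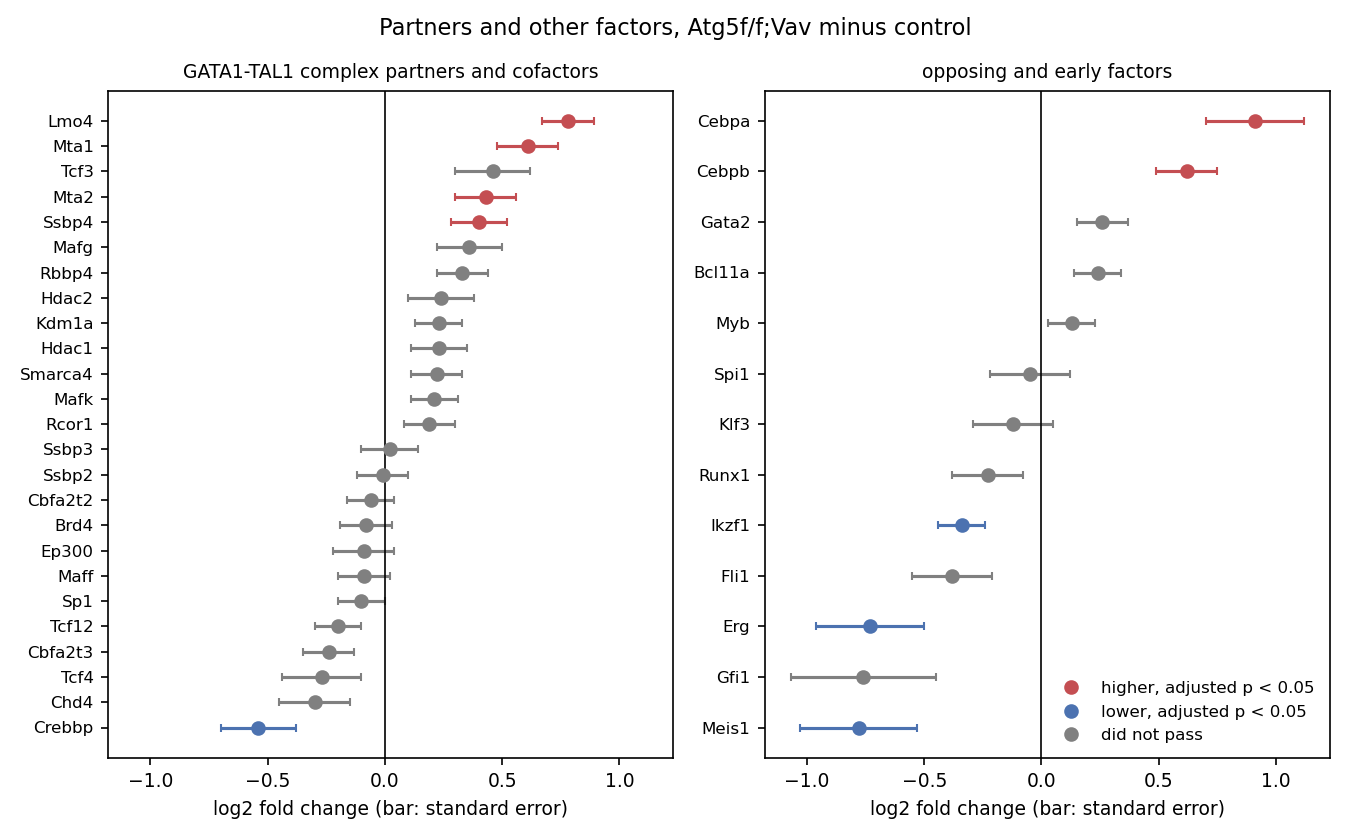
Log2 fold change, Atg5f/f;Vav minus control (x axis), with its standard error, for 25 partners and cofactors (left) and 13 opposing and early factors (right). Most values are small beside those of Gata1, Klf1 and Gfi1b, with 5 genes past the test in each panel.

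The targets of these factors did not move as 1 group. Of 45 listed red cell genes 43 were on the array and 40 were tested. Of these 15 were higher, 6 were lower and 19 did not pass, with a median of 0.65, beside 18.7% of all genes called higher and 15.3% called lower. The embryonic globins Hbb-y and Hba-x were well above background on no array, and Epb4.2 on 2, too few to be tested. A further embryonic globin, Hbb-bh1 (named after its values were seen), was called higher by 0.92 (limma adjusted p = 0.0171) but was well above background on 1 of the 3 control arrays, so its difference rests partly on values below background. Car1, the carbonic anhydrase of early erythroid progenitors, rose by 3.80 from -0.87, -1.06 and -1.32 to 1.53, 2.64 and 3.98 (SE 0.56, limma adjusted p = 0.0138). Its rise was 3.17 without Atg5f/f;Vav replicate 3 and 4.40 without Atg5f/f;Vav replicate 1. Epor, the erythropoietin receptor and a Gata1 target, was 0.73, 0.53 and 0.48 in control and 1.70, 2.69 and 3.59 in Atg5f/f;Vav, a rise of 2.08 (SE 0.43, limma adjusted p = 0.0181). The ammonium channel subunit Rhag rose by 2.41, the biliverdin reductase Blvrb by 2.39 and the water channel Aqp1 by 2.31. Rhag did not pass without control replicate 3 (1.97, limma adjusted p = 0.075) or without Atg5f/f;Vav replicate 2 (2.41, limma adjusted p = 0.0613). With replicate number as a block it was not called either. Its rise was 1.81 without Atg5f/f;Vav replicate 3 and 3.01 without Atg5f/f;Vav replicate 1. In 14 of the 15 targets called higher, Atg5f/f;Vav replicate 3 was the highest array of its group, as it was for Gata1, Klf1 and Gfi1b.

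The share of targets that fell was near that of all genes, and the largest falls were those of adult globin, haem and membrane genes. Hba-a1, the adult alpha globin and the brightest probe of the list, was 8.90, 8.84 and 7.72 in control and 6.00, 6.42 and 6.28 in Atg5f/f;Vav. Its difference was -2.26 (SE 0.32, limma adjusted p = 0.0136). Slc4a1, the anion exchanger of the red cell membrane, was 2.80, 2.69 and 1.31 against 0.03, -0.04 and -0.05, a difference of -2.29 (SE 0.38, limma adjusted p = 0.0149). Alas2, which opens haem synthesis in red cells, fell by 2.07, Hbb-b1 by 1.92 and Hbb-bt by 1.22. The alpha and beta globin genes have near-identical copies, so their probes may read more than 1 gene. Control replicate 3 was the lowest control array for all 6 genes called lower. Without it the differences of Hba-a1, Slc4a1 and Alas2 were -2.64, -2.76 and -2.55. No target was called without control replicate 1 or without control replicate 2, where 26 and 21 had an unadjusted limma p under 0.05.

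**Figure D4:**
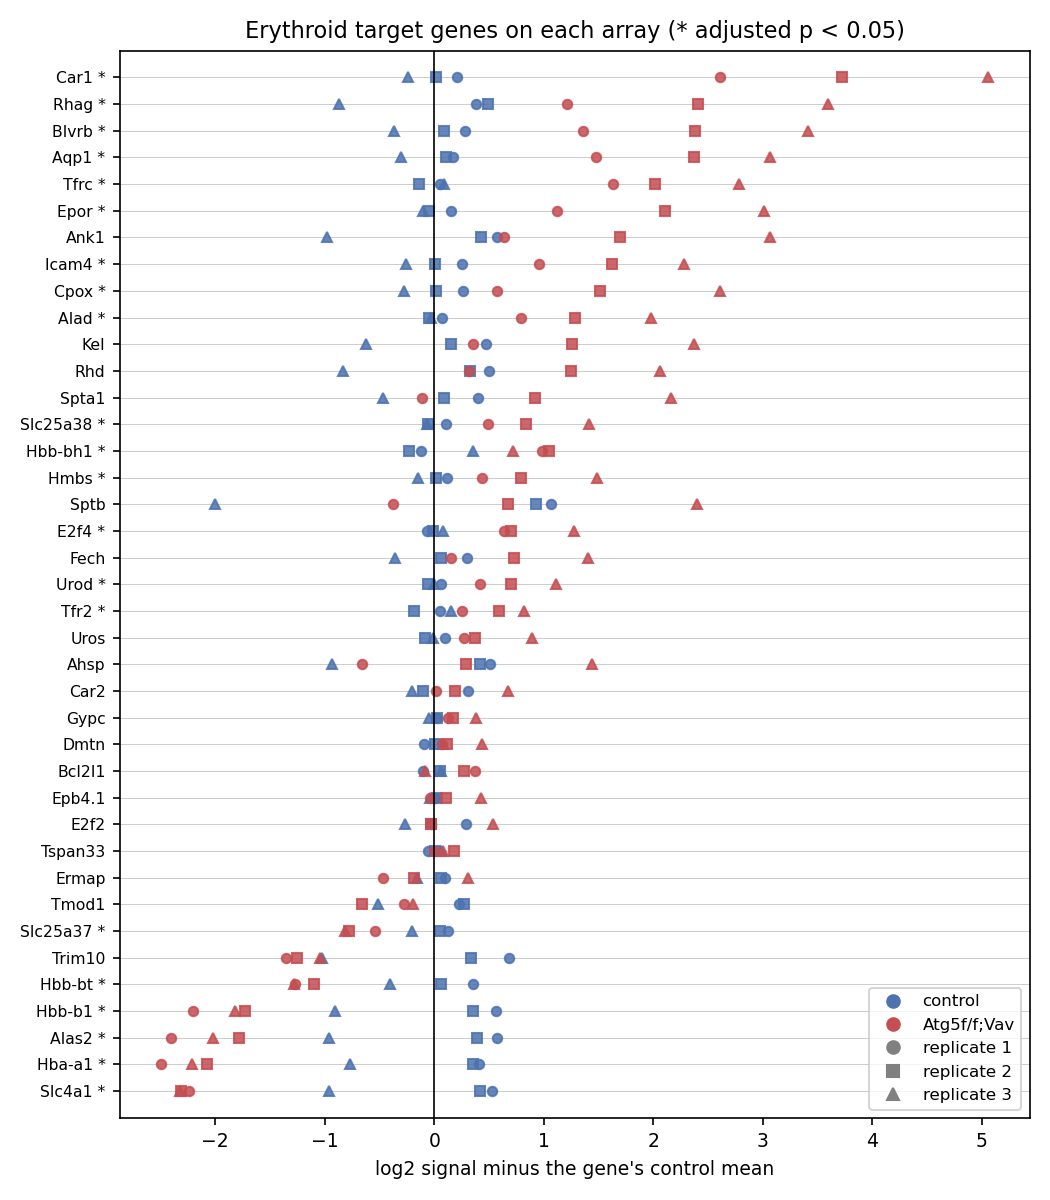
Log2 signal of 39 of the 40 tested red cell genes (a gene that is not reported here is left out) on each array minus the gene's control mean (x axis), with control in blue and Atg5f/f;Vav in red, 1 marker per array, and * for an adjusted p under 0.05. Car1, Rhag and Blvrb stand at the top, and Slc4a1, Hba-a1 and Alas2 at the bottom.

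Markers of the red cell and of other cells in which these factors act were summed beside them, and their part in the results was not tested. The summed linear signal of the 40 red cell genes, in units of the array's 75th percentile, was 908.6, 834.8 and 505.5 in control and 340.8, 434.2 and 548.8 in Atg5f/f;Vav, and Hba-a1 alone gave 478.4, 459.6 and 210.8 against 64.03, 85.47 and 77.48. Megakaryocytes also use Gata1, Gfi1b and Zfpm1. Of 14 tested megakaryocyte markers 5 were higher (Gp5 by 2.08, Gp1ba by 1.39) and 5 lower (Vwf by -0.70), beside 18.7% and 15.3% of all genes. Those lower include Ppbp and Thbs1, which had the largest measured falls. Both were well above background on no Atg5f/f;Vav array and entered the test through the control arrays alone. The summed signal of the megakaryocyte markers was 11.04, 9.945 and 9.678 against 9.612, 10 and 10.06, with Gp9 brightest. Tubb1 and Clec1b were well above background on no array. Mast cells, basophils and eosinophils use Gata1 as well. Of 18 tested markers 3 were higher (among them Ms4a2 by 2.96 and Siglecf by 1.63), 3 were lower (among them Cma1 by -2.01) and 12 did not pass, shares near those of all genes (18.7% and 15.3%), with a median of -0.01. Their summed signal was 30.80, 21.95 and 46.24 against 26.94, 21.56 and 20.72. Mcpt4 was brightest by its mean over all 6 arrays, but not by its Atg5f/f;Vav mean of 1.02. The third of those higher, Gzmb, was well above background on no control array and entered the test through the Atg5f/f;Vav arrays alone. It was at least 11.7-fold higher in Atg5f/f;Vav, counted against the lowest signal well above background on each control array. The fit's adjusted p of 0.00547 belongs to the measured means of -6.51 and -1.30, not to this bound.

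The gate's own genes were read last. Kit, the c-Kit gene of the gate, which was named after its values were seen, was 4.01, 4.12 and 3.93 in control and 3.82, 3.61 and 3.50 in Atg5f/f;Vav (-0.38, adjusted p = 0.0563). Ly6a, which encodes Sca-1, was 1.56, 1.31 and 1.53 against 2.89, 2.91 and 3.30, a rise of 1.57 (SE 0.15, limma adjusted p = 0.00623). Of the 6 gate and progenitor genes Ly6a alone passed, beside 18.7% of all genes higher and 15.3% lower, and the brightest, Cd34, was -0.27 (adjusted p = 0.36). Their summed signal was 132.3, 138.9 and 144.2 against 150.8, 121.6 and 92.43, lowest on the array where Gata1, Klf1 and Gfi1b were highest. Most of this sum was Cd34, which alone gave 82.41, 86.08 and 93.51 against 94.86, 76.91 and 51.45. Ly6a went the other way and was highest on that array.

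**Figure D5:**
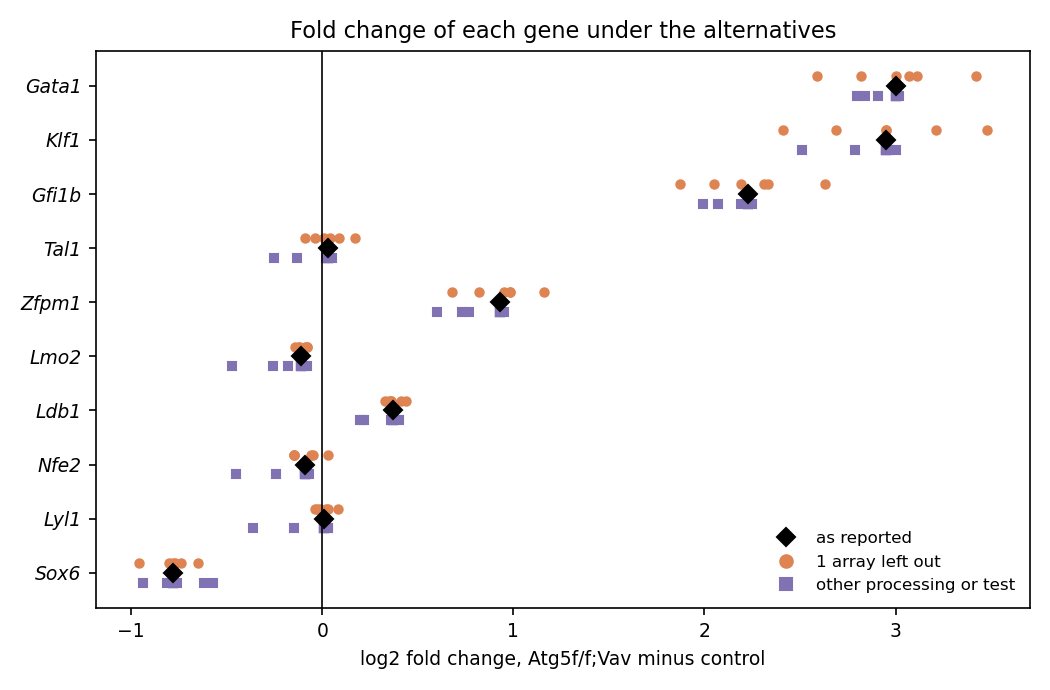
Log2 fold change, Atg5f/f;Vav minus control (x axis), of each gene as reported (black diamond), with 1 array left out (orange) and under other processing or tests (violet). Gata1, Klf1 and Gfi1b stay at 1.87 or above throughout, while Tal1, Lyl1 and Nfe2 lie on both sides of 0.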

How the data were processed

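LSK cells had been sorted into TRIzol and total RNA labelled with Cy3. The authors deposited scanner files with 1 intensity per spot, background-corrected by Agilent Feature Extraction 12.0.3.1 (per the submitters' processing notes), and a table of normalised signal. The deposited signal was checked to equal the intensity divided by a 75th percentile, that of all 62976 spots of its array, to within 0.042% on every array.

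Here each intensity was put on the log2 scale and centred on the 75th percentile of its array, computed over 59305 spots without the control spots. The scanner software flagged 64 to 81 spots of an array as outliers, which were dropped, and none was saturated. Spots of a probe were averaged. A probe entered the test if 3 of the 6 arrays showed it well above background. Testing used limma 3.58.1 (lmFit, eBayes, 2-sided) under R 4.3.3, adjusted by Benjamini-Hochberg over 32074 probes at a threshold of 0.05. The tested probe with the highest mean signal represented a gene. The fit was tested on simulated data.

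The genes and lists were chosen with earlier results of these data known. Named were all 10 genes, and of each other list at most 4 called genes each way by size and the brightest by mean over all 6 arrays. Epor, Slc4a1, Alas2, Hba-a1, Hbb-bt, Gata2, Spi1, Cbfa2t3 and Atg5 were named as well. Genes named outside the rule are marked as named after their values were seen, or are given only as not well above background on enough arrays. A further gene of the rule is not reported here. The erythroid list matched Epb42 and Epb41 by synonym, and Hbb-bs and Rhex had no match. Alternatives changed the background correction (normexp, offset 50), the normalisation (quantile, or a 75th percentile of commonly detected probes, or the authors' deposited signal), the filter (none, or all 6 arrays), the outlier spots (kept), the variance model (intensity trend), the test (the methods' t-test), the design (replicate number as a block, or 1 array fewer) and the probe (the mean of a gene's probes). Slide and scan could not be blocked, since all arrays shared both.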

Additional observations from a re-analysis of the deposited data

How the results depend on the processing

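Of 180 values of the 10 genes under the alternatives, 137 kept their direction and their side of the threshold, 32 lost the call, 1 gained it and 10 changed sign. All sign changes were in Tal1, Lyl1 and Nfe2, none of which was called. Under quantile normalisation Tal1 was -0.25 and Lyl1 -0.36. With scaling on the probes seen on every array they were -0.13 and -0.15. With 1 array left out Tal1 ranged from -0.09 to 0.17 (-0.04 without control replicate 3), Lyl1 from -0.04 to 0.08 (-0.03 without control replicate 2, -0.01 without Atg5f/f;Vav replicate 2) and Nfe2 from -0.15 to 0.03.

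Without a filter on dim probes, 4538 of 56605 probes were called in place of 11024, with 3 of the 10 genes in place of 6, 1 partner in place of 5 and 1 opposing or early factor in place of 5. The methods' t-test called 13541 probes unadjusted, with 6 of the 10 genes, 13 partners, 5 opposing or early factors and 20 targets, and 0 of each after Benjamini-Hochberg. An intensity trend gave 8 partners. The mean of a gene's probes called 4 of the 10 genes, all higher, with Sox6 (-0.81) and Ldb1 (0.21) lost. With 1 array left out, the probes called ranged from 251 (without control replicate 2; 330 without control replicate 1) to 10304, the 10 genes from 0 to 5, the partners from 0 to 5, the opposing and early factors from 0 to 4 and the targets from 0 to 27. The zeros were those without control replicate 1 or control replicate 2, where limma gave 5 and 6 of the 10 genes an unadjusted p under 0.05. The cause was not tested.

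Scaling on probes detected on all arrays moved the median log2 difference of all probes from -0.06 to -0.22 and the split from 5540 higher and 5484 lower to 3889 and 8744. Same-numbered arrays deviated from their group means with correlations of -0.065, 0.189 and 0.111, so the numbers were not read as pairs. The replicate block gave 10173 probes, 5 of the 10 genes (Ldb1 lost, adjusted p = 0.0569), 4 partners, 2 opposing or early factors and 17 targets. Arrays measure brightness over background, which limited Sox6 and other dim probes.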

Other observations

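Markers of other bone marrow cells were read beside the erythroid factors. The LSK gate takes lineage-negative cells. The study's methods stain Gr-1, Ter119, B220, CD4 and CD8 among the lineage markers, which would remove mature granulocytes, red cells, B cells and T cells. They add the myeloid marker Mac-1 to that mix only for mice older than those used here. Of 17 neutrophil and monocyte markers 7 were higher, 7 were lower and 3 did not pass, with a median log2 difference of -0.21. Over all genes, here and for the lists below, 18.7% were higher and 15.3% lower. The largest rises were those of the granule protease Ctsg (1.91), the monocyte factor Irf8 (1.49), the myeloperoxidase Mpo (1.0) and the Fc receptor Fcgr3 (0.89). Mpo was the brightest probe by its mean over all 6 arrays, but not by its control mean of 6.56. The largest falls were those of the collagenase Mmp8 (-1.61), of Ltf and S100a8 (both -1.38) and of S100a9 (-1.34). The summed signal was 424.4, 375.2 and 479 in control and 456.2, 419.9 and 457.6 in Atg5f/f;Vav. For the megakaryocyte list, Itga2b rose by 1.17 and Treml1 by 0.88, Gp9 was -0.63, and Ppbp and Thbs1 were well above background on no Atg5f/f;Vav array, which made them at least 1.22-fold and 2.1-fold higher in control. Both entered the test through the control arrays alone, and the fit's adjusted p of 0.0113 and 0.0196 belong to means measured partly below background, not to these bounds. Of the mast cell and basophil genes, Prss34 was -1.25 and Tpsb2 -1.06.

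Of 7 tested macrophage markers Slc40a1, the iron exporter ferroportin, rose by 2.15, Cd5l was -1.95 and Vcam1 -1.42, with Cd68 brightest. Mertk, Cd163 and Mrc1 were well above background on no array. Of 8 B cell markers Cd79a was called, with a difference of 0.95 that rests partly on values below background, since it was well above it on 1 of the 3 control arrays. Cd79b was brightest. Of 6 tested T and NK cell markers 0 were called by limma, with Nkg7 brightest. At an unadjusted limma p under 0.05 there was 1, Klrb1c, named after its values were seen. Klrb1c was well above background on no Atg5f/f;Vav array and entered the test through the control arrays alone. It was at least 1.4-fold higher in control. Its unadjusted p belongs to means measured partly below background, not to this bound. Of 6 stromal markers 3 were lower and none higher. Col1a2 was -0.90, 3.47 and 2.90 in control and -1.94, -2.10 and -1.60 in Atg5f/f;Vav, so the high values lay on control replicates 2 and 3. Sparc was -2.59, and Col1a1, well above background on no Atg5f/f;Vav array, measured -4.14, 3.23 and 2.95 in control and was at least 39.0-fold higher there, a bound carried by control replicates 2 and 3. The fit's adjusted p of 0.0447 belongs to the measured means of 0.68 and -5.30, not to the bound. The summed stromal signal was 9.669, 39.85 and 29.80 against 5.381, 8.316 and 8.627. Lepr was brightest by its mean over all 6 arrays, but Col1a1, Col1a2 and Sparc were brighter on control replicates 2 and 3. Of 4 tested endothelial markers Kdr was -1.42 and Emcn, the brightest, -1.36.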
